A study of Mus musculus with 6 samples.

Results

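The 10 genes described here make and load the MHC class I molecules of the cell surface, and they were chosen by gene symbol. They are B2m, H2-K1, H2-D1, H2-T23, Tap1, Tap2, Tapbp, Psmb8, Psmb9 and Nlrc5, and each had a row in a count table of 46095 gene symbols. RNA was sequenced from BV2, a line of immortalized microglia of the mouse, so that every library came from the same cells grown in plastic wells rather than from brain tissue. The CON group held 3 libraries of untreated cells, and the sTREM-1 group held 3 libraries of cells given recombinant sTREM-1, the soluble form of a receptor that amplifies innate immune responses, at 1 μg/mL for 6 h. The comparison asked which transcripts of the class I pathway differed after this exposure. The labels do not say whether the libraries came from separate cultures, so that the p-values measure the spread between these libraries, which may be technical. In RNA from whole wells, fewer cells that express a gene and less RNA of that gene per cell cannot be told apart.

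MHC class I molecules show fragments of the proteins made inside a cell to CD8+ T cells and natural killer cells. Proteasomes cut the proteins, the TAP transporter carries the peptides into the endoplasmic reticulum, and tapasin and its partners load them onto a heavy chain that is held in shape by beta-2-microglobulin. In microglia, as in other cells, this set of genes is known to respond to interferons, with NLRC5 acting at the class I promoters together with factors bound to short promoter elements.

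The libraries held 40070633 to 45877107 counts, and levels are given as CPM, counts scaled to a common library size with TMM, a correction for library composition. Of 12 microglia and macrophage markers, 11 passed the count filter, with Csf1r, Adgre1 and Ptprc at 13972 counts or more in each library, whereas Aif1, which lies in the sparsely counted interval described below, was listed at 0 in all 6 libraries and Tmem119, P2ry12 and Cx3cr1 had at most 93 counts in a library. Of 12 markers of neurons, glia, lymphocytes, endothelium and epithelium, 6 were at 0 in all libraries. The summed level of the microglial markers was 2645 to 2675 CPM in the CON libraries and 2954 to 3006 CPM in the sTREM-1 libraries, with 4 of them called higher, and that of the other cell types was 5.65 to 7.05 and 4.78 to 5.79 CPM, with none called. Of all tested genes, 16.5% were called higher and 14.1% lower. The part of the marker genes in the results was not tested.

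Promoter sequences were read from RefSeq (GRCm38.p6), which had entries for 8 of the 10 genes. The 200 bases before the RefSeq start of 4 of them are shown, 5′ to 3′ along the gene. These were taken because B2m and the heavy chains are the genes that carry the class I molecule itself. Each window held some of the short elements to which the pathway's regulators are known to bind. Of the elements marked below, only CCAAT, on either strand, was found in all 4. The RefSeq starts of H2-D1 and H2-T23 differ from the GENCODE gene bounds given below. The window shown lies inside those bounds wholly for H2-D1 and mostly for H2-T23. Capitals mark matches on either strand to GAAANNGAA, a form of the interferon-stimulated response element, to TGACG, the core of the cyclic AMP response element, and to CCAAT, the element of the factor NF-Y, which reads ATTGG on the other strand.
B2m, chr2:122147487-122147686, plus strand: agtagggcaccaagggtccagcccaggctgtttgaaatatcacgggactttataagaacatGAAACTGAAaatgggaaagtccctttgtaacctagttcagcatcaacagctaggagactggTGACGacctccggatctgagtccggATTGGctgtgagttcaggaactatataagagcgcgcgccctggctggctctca
H2-K1, chr17:34000348-34000547, minus strand: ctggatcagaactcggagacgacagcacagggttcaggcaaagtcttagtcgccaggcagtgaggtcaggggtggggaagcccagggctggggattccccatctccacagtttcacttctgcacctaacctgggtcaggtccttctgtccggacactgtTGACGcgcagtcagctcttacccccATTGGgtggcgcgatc
H2-D1, chr17:35262894-35263093, plus strand: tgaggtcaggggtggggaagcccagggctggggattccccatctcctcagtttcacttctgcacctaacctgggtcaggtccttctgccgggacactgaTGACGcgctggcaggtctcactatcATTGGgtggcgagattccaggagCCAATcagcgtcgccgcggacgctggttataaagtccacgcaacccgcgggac
H2-T23, chr17:36032702-36032901, minus strand: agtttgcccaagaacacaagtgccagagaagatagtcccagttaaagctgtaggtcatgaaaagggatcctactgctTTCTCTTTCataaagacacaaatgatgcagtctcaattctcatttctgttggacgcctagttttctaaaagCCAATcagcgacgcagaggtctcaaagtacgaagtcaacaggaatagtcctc
In B2m, H2-K1 and H2-D1 the letters TGACG were followed by 20 other bases and then by ATTGG, a spacing chosen after the sequences were seen. This pair occurred in 31 of 32851 promoter entries of 300 bases (0.0944%), which belonged to 27 genes, and H2-T23 was not among them in this window. GAAANNGAA was found in B2m, starting 139 bases before the transcription start. It was also found in H2-T23, starting 123 bases before the start on the other strand, and in 8.56% of all entries. Other forms of the interferon-stimulated response element were not searched. The lack of a marked match in H2-K1 and H2-D1 therefore does not show that these genes lack the element. TGACG alone occurred in 20.8% of entries and CCAAT in 37.4%, so that a single match is common. Of the 17 tested genes with the spaced pair, 6 were called higher and 4 lower with sTREM-1, beside 16.5% and 14.1% of all tested genes. The 17 include B2m and H2-K1, from which the pair was chosen and which were not called. A link between the pair and the calls was not tested. The matches are descriptions of letters, and binding to them was not measured.

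Compared with the CON group, the class I genes that were called differed in direction in the sTREM-1 group. Likeness of pattern between the genes was not measured. H2-T23 rose by 0.17 on the log2 scale, Nlrc5 fell by 0.16, and B2m, with the most counts of them, differed by 0.04 and was not called. Of the 10 genes, H2-D1 had no counts, 9 were tested, 2 were called higher (H2-T23 and Psmb9), 1 was called lower (Nlrc5) and 6 were not called. Among all 14120 tested genes, 16.5% were called higher and 14.1% lower at an adjusted p under 0.05, and the class I genes, with 2 and 1 of 9, lay near this background. The groups did not overlap in CPM for H2-T23 and Nlrc5, 2 of the 9, beside 40.7% of all tested genes. The median log2 fold change of the 9 was 0.22, beside -0.0017 over all tested genes. This median is the value of H2-K1, which was not called and whose sign rested on 1 library. Most of the larger values belonged to genes with few counts and wide spread. Per library, the median log2 ratio of the 9 to their CON means was -0.050 to 0.019 in CON. In sTREM-1 it was 0.0060 to 0.063, so that the groups overlapped.

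**Figure D1:**
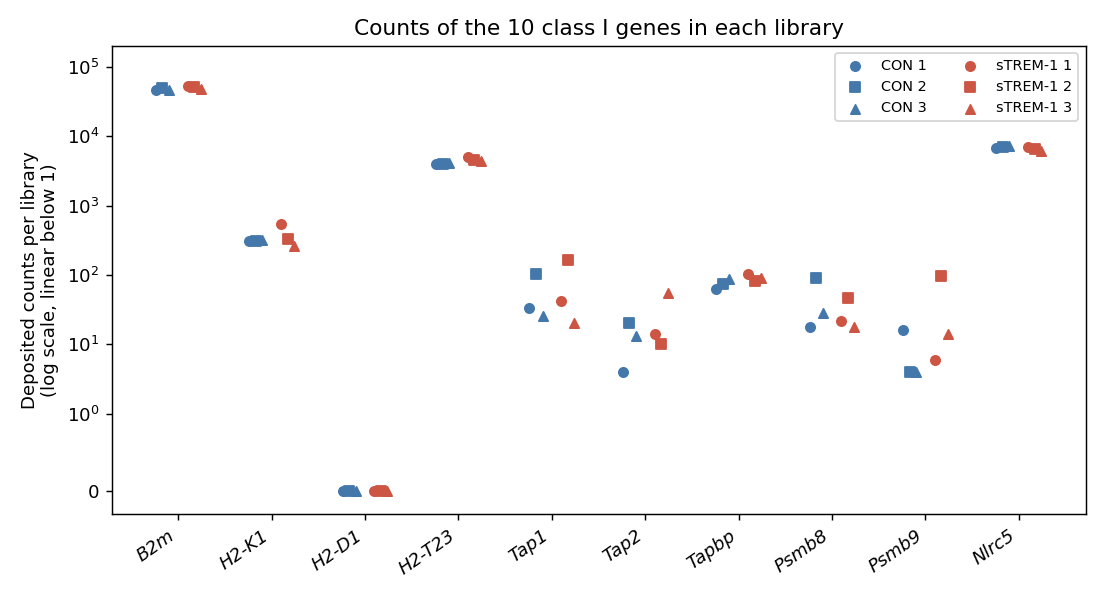
Deposited counts of the 10 class I genes in each library (vertical axis, log scale that is linear below 1), with CON libraries in blue, sTREM-1 libraries in red, and circles, squares and triangles for replicates 1, 2 and 3. B2m has at least 46520 counts in every library and H2-D1 has 0, while Tap1, Tap2, Psmb8 and Psmb9 scatter over several-fold within a group.

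The plot of counts by library shows a level that goes with position on chromosome 17. A wide spread within a group was seen for Tap1, Tap2, Psmb8 and Psmb9, but not for Tapbp. In the GENCODE M21 annotation of GRCm38, 7 of the 10 genes lie in the 1.35 Mb from Tapbp to H2-D1, and these are the ones with few or no counts, whereas B2m (chromosome 2), Nlrc5 (chromosome 8) and H2-T23 (chromosome 17, beyond H2-D1) lie outside it. Of 89 protein-coding genes in this interval, 5 (5.62%) had at least 1 CPM in every library and 49 were at 0 in all 6. The share was 44.7% of 38 genes in the same length before Tapbp, 50% of 46 genes in the same length after H2-D1, and 49.1% of all other protein-coding genes. Genes that nearly every cell uses were sparse there too. Of 5 genes in the interval from broadly expressed families (ribosomal, proteasome, spliceosome, prefoldin and vesicle sorting proteins and the like), only Rps18 had at least 1 CPM in every library, and Csnk2b, a subunit of casein kinase, was at 0, as was Bag6, a cytosolic chaperone outside those families. Outside the interval, 351 of 370 genes of these families (94.9%) had at least 1 CPM in every library, and on the rest of chromosome 17 it was 17 of 20 (85%). In the same length before Tapbp it was 0 of 2, with Rps28 at a mean of 0.106 and Ndufa7 at 0.0603 CPM, so that sparse genes also lay just before Tapbp. Low or absent counts of H2-D1, H2-K1, Tapbp, Tap1, Tap2, Psmb8 and Psmb9 are therefore given below as the table lists them, and not as low expression, and the cause was not tested. The interval, the families and the limit of 1 CPM were chosen after the values were seen.

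**Figure D2:**
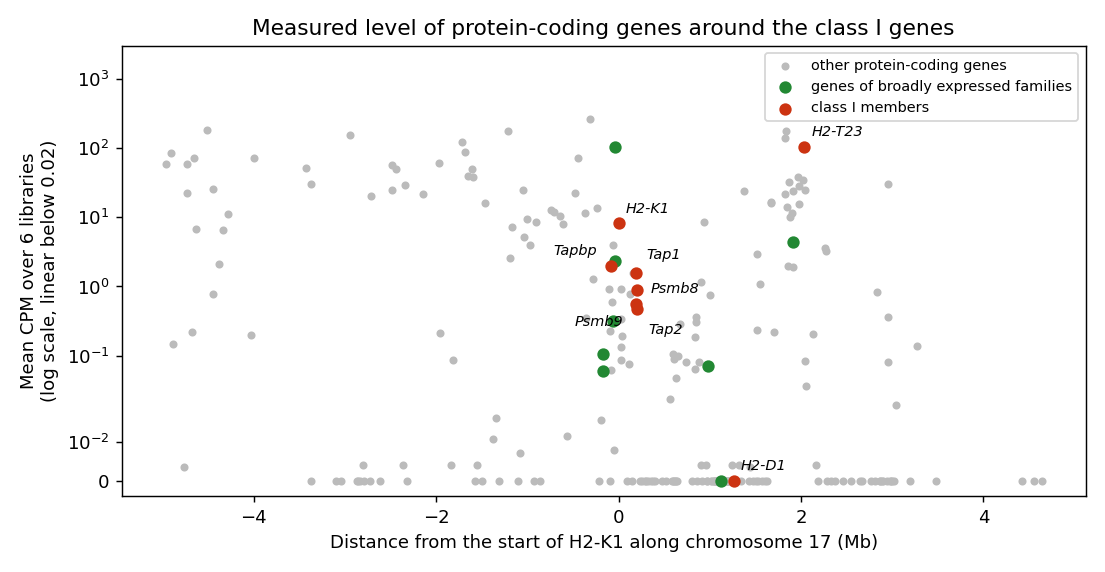
Mean CPM over the 6 libraries (vertical axis, log scale that is linear below 0.02) of protein-coding genes by their distance in Mb from the start of H2-K1 along chromosome 17, with the class I genes in red, genes of broadly expressed families in green and the others in grey. Between Tapbp and H2-D1 most points lie near or at 0, with 5 of 89 genes at 1 CPM or more in every library, while H2-T23 lies at 104 CPM.

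B2m, which encodes the light chain of every class I molecule (chromosome 2, 122147686 to 122153083), had the most counts of the 10 genes. It had 1136, 1209 and 1150 CPM in the CON libraries and 1169, 1216 and 1206 CPM in the sTREM-1 libraries. The groups overlapped, since CON replicate 2 lay above 2 of the sTREM-1 libraries. The means were 1165 ± 38.8 and 1197 ± 24.6 CPM (SD, n = 3), a log2 fold change of 0.04 (SE 0.02, adjusted p = 0.203 with edgeR's quasi-likelihood test), which was not past the threshold. Without CON replicate 2 it was 0.06 (edgeR adjusted p = 0.0354), so that this call depended on 1 library.

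H2-T23 encodes the heavy chain of Qa-1, a non-classical class I molecule that presents leader peptides of other class I chains to receptors of natural killer cells (chromosome 17, 36029773 to 36032855). It had 96.4, 98.0 and 99.1 CPM in the CON libraries and 111, 108 and 112 CPM in the sTREM-1 libraries. Every sTREM-1 library lay above every CON library. The means were 97.8 ± 1.34 and 110.4 ± 1.97 CPM (SD, n = 3), and H2-T23 rose by 0.17 on the log2 scale (1.13-fold, SE 0.03, adjusted p = 8.2e-05 with edgeR). Relative to B2m within the same library, which takes library scaling out, the log2 count ratio was -3.57 ± 0.0463 in the CON group and -3.44 ± 0.0486 in the sTREM-1 group. The difference was 0.13 (SE 0.0388), with no overlap between groups, and the exact two-sided permutation test gave p = 0.1, the smallest that 3 against 3 libraries allow, and 0.25 after adjustment over the 5 ratios computed. Of its transcript sequence, 14.5% of 50-base words also occurred in transcripts of other genes, and an antisense gene that overlaps it had 131 counts in all 6 libraries.

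H2-K1 encodes the heavy chain of the classical molecule H-2K (chromosome 17, 33996017 to 34000347). Its counts were 305, 305 and 318 in CON and 546, 330 and 263 in sTREM-1. The CON libraries were close together, while sTREM-1 replicate 1 was above and replicate 3 below all of them. The means were 7.55 ± 0.200 and 8.77 ± 2.81 CPM (SD, n = 3), a log2 fold change of 0.22 (SE 0.14) that was not called (edgeR adjusted p = 0.251). The sign rested on 1 library, since the log2 fold change was -0.07 without sTREM-1 replicate 1 (edgeR adjusted p = 0.734) and 0.38 without sTREM-1 replicate 3 (adjusted p = 0.0323). The log2 ratio of H2-K1 to B2m differed by 0.13 (SE 0.273, exact two-sided permutation p = 0.9).

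H2-D1, the heavy chain of the classical molecule H-2D (chromosome 17, 35262730 to 35267499), was listed at 0 in all 6 libraries, and a floor of 3 counts corresponds to at most 0.0756 CPM in a library. No test and no ratio to B2m could be computed for it. Of its transcript words in GENCODE M21, 12.8% of those of 50 bases and 3.59% of those of 100 bases also occurred in other genes. Alternate copies of the region in the annotation that the authors used were not compared, and the cause of the 0 counts was not tested.

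The wider list of class I heavy chains had 17 genes, of which 16 were in the table and 6 were at 0 in every library. Of the 6 tested, 3 were called higher, 1 lower and 2 not called (median log2 fold change 0.20). This and the other list counts stand beside 16.5% called higher and 14.1% lower among all tested genes. No list was tested as a set. Beside H2-T23, its neighbours H2-T24 (0.32, SE 0.05, edgeR adjusted p = 5.6e-06) and H2-T22 (0.29, SE 0.06, adjusted p = 0.000271) rose. H2-Q4, a chain of the Qa region, fell by 0.28 (SE 0.07, edgeR adjusted p = 0.00191). Of 50-base transcript words, H2-T22 shared 53.5% and H2-Q4 36.4% with other genes, so that the counts of these paralogs are uncertain, whereas H2-T24 shared 3.17%.

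**Figure D3:**
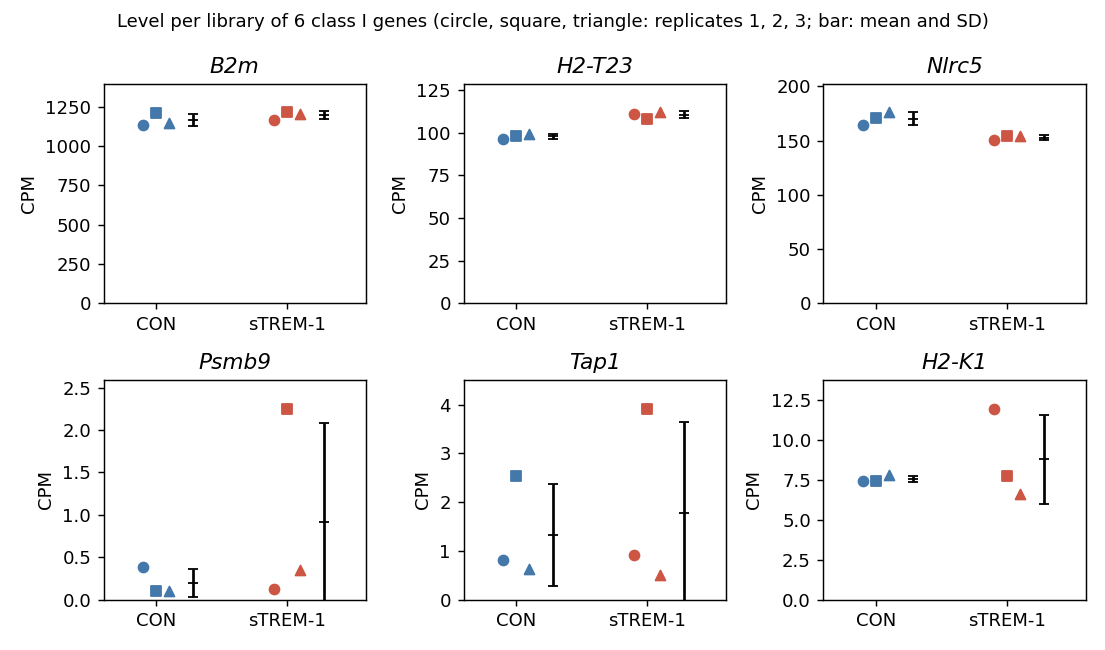
CPM of 6 class I genes in each library (vertical axes start at 0), with circles, squares and triangles for replicates 1, 2 and 3 and a bar for the mean and SD of each group. H2-T23 and Nlrc5 show groups that do not overlap, B2m and H2-K1 overlap, and in Psmb9 sTREM-1 replicate 2, at 2.25 CPM, stands above every other library.

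Tap1 and Tap2 encode the paired subunits of the transporter that moves peptides into the endoplasmic reticulum, and Tapbp encodes tapasin, which bridges that transporter and the empty class I molecule. For Tap1 (chromosome 17, 34187553 to 34197225) the CON libraries held 33, 104 and 26 counts and the sTREM-1 libraries 42, 167 and 20. Replicate 2 was the highest of either group, and the CON range lay inside that of the sTREM-1 group. The log2 fold change of Tap1 was 0.43 (SE 0.47, edgeR adjusted p = 0.550), and it was -0.89 without sTREM-1 replicate 2 and 1.30 without CON replicate 2, the latter past the threshold (adjusted p = 0.0410). For Tap2 (chromosome 17, 34203527 to 34216321) they held 4, 20 and 13 counts in CON and 14, 10 and 55 in sTREM-1. Here sTREM-1 replicate 3 stood above the rest, and the log2 fold change of 1.06 (SE 0.57, edgeR adjusted p = 0.171) became -0.15 without it. Tapbp (chromosome 17, 33915899 to 33929292) was counted 63, 75 and 87 times in CON and 104, 81 and 91 times in sTREM-1. Its groups overlapped, since CON replicate 3 lay above sTREM-1 replicate 2, and the log2 fold change of 0.23 (SE 0.22, edgeR adjusted p = 0.476) was not called.

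Partners of these 3 genes that lie elsewhere in the genome had many more counts. The list of peptide loading and folding genes of the endoplasmic reticulum had 14 tested genes, these 3 included. Of these, 5 were called higher, 1 lower and 8 not called (median log2 fold change 0.10), beside 16.5% higher and 14.1% lower of all tested genes. Calreticulin (Calr, log2 fold change 0.11, edgeR adjusted p = 0.000197) and the disulfide isomerase ERp57 (Pdia3, 0.14, adjusted p = 6.7e-06), both of which sit in the loading complex with tapasin, rose, as did the peptide-trimming protease Erap1 (0.11, adjusted p = 0.00650). The general chaperone BiP (Hspa5) fell by 0.26 (edgeR adjusted p = 5.1e-12). Tapbpl, a relative of tapasin, had a log2 fold change of -0.06 and calnexin (Canx) of -0.01, and neither was called.

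Psmb8 and Psmb9 encode inducible catalytic subunits that replace Psmb5 and Psmb6 in the immunoproteasome, and Psmb10 is the third such subunit, in place of Psmb7. For Psmb9 (chromosome 17, 34181987 to 34187764) the CON libraries held 16, 4 and 4 counts and the sTREM-1 libraries 6, 96 and 14. Only sTREM-1 replicate 2 lay above CON replicate 1. Psmb9 was called higher with a log2 fold change of 2.20 (SE 0.68, edgeR adjusted p = 0.0129), but the call was lost without sTREM-1 replicate 2, where the value was 0.28 (adjusted p = 0.841). It was also lost without CON replicate 3 (1.89, edgeR adjusted p = 0.0819). Psmb9 overlaps Tap1 on the opposite strand, and 4.19% of its 50-base transcript words also occurred in Tap1. The Tap1 count was highest in sTREM-1 replicate 2 too. In CON replicate 2, however, Tap1 had 104 counts, the highest of its group, and Psmb9 had 4. Whether these genes shared reads was not tested. For Psmb8 (chromosome 17, 34197721 to 34201454) they held 18, 90 and 28 counts in CON and 22, 47 and 18 in sTREM-1. As for Tap1, replicate 2 was the highest of either group, and the log2 fold change of -0.70 (SE 0.45, edgeR adjusted p = 0.264) became 0.27 without CON replicate 2. Per kilobase of exon, the log2 ratio of Psmb8 to Psmb5 differed between groups by -0.44 (SE 0.813, exact two-sided permutation p = 0.7) and that of Psmb9 to Psmb6 by 1.62 (SE 1.38, exact p = 0.3).

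Psmb10, which lies on chromosome 8 and so outside the sparsely counted interval, had enough counts for a tight value. It was counted 968, 1002 and 1040 times in CON and 1540, 1287 and 1275 times in sTREM-1, and rose from 24.5 ± 0.920 to 32.0 ± 1.76 CPM (SD, n = 3; log2 fold change 0.39, SE 0.06, edgeR adjusted p = 4.2e-06). Its log2 ratio to Psmb7 was -2.11 ± 0.121 in the CON group and -1.67 ± 0.0861 in the sTREM-1 group, a difference of 0.45 (SE 0.0859) with no overlap (exact two-sided permutation p = 0.1, 0.25 after adjustment). The constitutive subunits Psmb5, Psmb6 and Psmb7 had log2 fold changes of -0.04, -0.03 and -0.06, and none was called. Of 8 immunoproteasome and activator genes tested, 3 were called higher (Psmb9, Psmb10 and the activator subunit Psme1), 1 lower (Psme3, of a different activator) and 4 were not called (median log2 fold change 0.03). For all tested genes the shares were 16.5% higher and 14.1% lower.

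Nlrc5, which encodes the transactivator of class I genes (chromosome 8, 94434356 to 94527272), had 164, 170 and 176 CPM in the CON libraries and 151, 154 and 154 CPM in the sTREM-1 libraries. All 3 values with sTREM-1 were under the lowest CON value. The means were 170.2 ± 5.84 and 152.7 ± 1.90 CPM (SD, n = 3), and Nlrc5 fell by 0.16 on the log2 scale (SE 0.03, edgeR adjusted p = 0.000118). B2m, a known target of NLRC5, was not called, and H2-T23 was called higher. A relation between the level of Nlrc5 and these genes was not tested. A long intergenic RNA gene on the opposite strand that overlaps Nlrc5 had 328 counts in all 6 libraries, beside at least 6106 counts of Nlrc5 in each.

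Among 19 regulators of class I transcription, all tested, 7 were called higher, 4 lower and 8 not called (median log2 fold change 0.01). The NF-Y subunits Nfyb and Nfya, which bind the CCAAT element, fell by 0.30 (edgeR adjusted p = 5.6e-05) and 0.15 (adjusted p = 0.000193). Nfyc, the other NF-Y subunit, was named after its value was seen. It had a log2 fold change of 0.0092 (edgeR adjusted p = 0.926) and was not called. Ezh2, which places a repressive histone mark, rose by 0.31 (edgeR adjusted p = 8.5e-07). Irf1, named after its value was seen, had a log2 fold change of -0.05 (edgeR adjusted p = 0.537). Of 8 genes of interferon receptors and their signal, 5 were called higher, none lower and 3 were not called. Ifngr2 (0.15), Ifnar2 (0.16) and Tyk2 (0.20) had the smallest p. The counts of both lists stand beside 16.5% called higher and 14.1% called lower among all tested genes. Neither list was tested as a set.

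**Figure D4:**
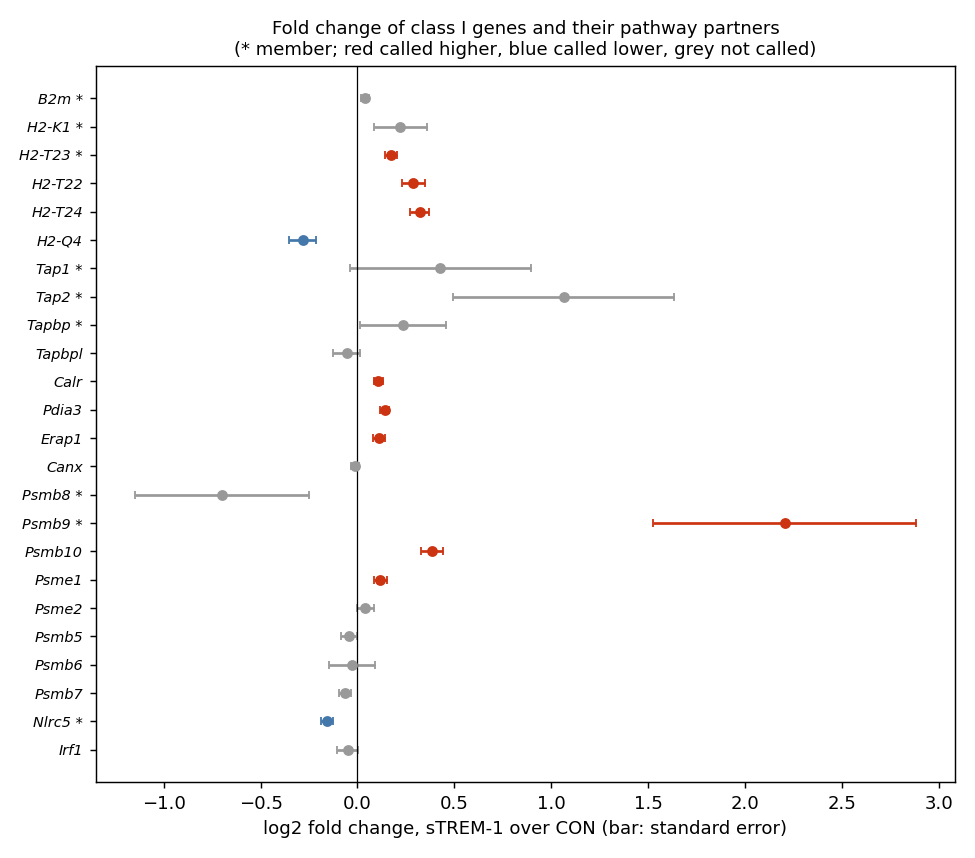
Log2 fold change of the sTREM-1 group over the CON group (horizontal axis; bars are standard errors) for the 9 tested class I genes, marked with an asterisk, and 15 partners of their pathway, red where called higher, blue where called lower and grey where not called. Genes with few counts (Tap1, Tap2, Psmb8, Psmb9) have wide bars, and Psmb9 at 2.20 is the far point, while H2-T23 at 0.17 and Nlrc5 at -0.16 have narrow bars.

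The spread between libraries differed widely among the 9 genes with counts. The larger of the group SDs of log2 CPM was 1.88 for Psmb9, 1.47 for Tap1, 1.27 for Tap2 and 1.14 for Psmb8, whereas the median over 3051 genes with a mean of 10 to 100 counts was 0.468. Each of these 4 genes varied more than at least 96.4% of the genes of like depth, and within a group the highest count was up to 16 times the lowest. Tapbp, in the same range of 10 to 100 counts, had an SD of 0.229, below most of those genes. The range is wide, and Tapbp had a mean of 83.5 counts, beside 65.3 for Tap1, 37.2 for Psmb8, 23.3 for Psmb9 and 19.3 for Tap2. H2-K1 had an SD of 0.438, larger than in 98.4% of 3927 genes with 100 to 1000 counts, and this came from the sTREM-1 group, where the highest count was 2.08 times the lowest, compared with 1.04 in the CON group. H2-T23 (0.0259) and Nlrc5 (0.0496) were at or below the median of 0.0556 over 6298 genes with 1000 to 10000 counts. B2m had 0.0476, above the median of 0.0313 over 708 genes of its depth.

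Per kilobase of annotated exon, the listed CON means ran in the order B2m (1354 CPM per kb), H2-T23 (33.9), Nlrc5 (20.05), H2-K1 (2.57), Tapbp (0.505), Psmb8 (0.327), Tap1 (0.242), Tap2 (0.0796) and Psmb9 (0.0534), with H2-D1 at 0. B2m, H2-T23 and Nlrc5, the genes outside the sparsely counted interval, differed from each other by more than the sum of their SDs. The values from H2-K1 down belong to genes of the interval and give no rank in expression, and from Tapbp to Psmb9 neighbours also lay within the sum of their SDs. In the sTREM-1 group the values were 1392 CPM per kb for B2m, 38.2 for H2-T23, 18.0 for Nlrc5, 2.99 for H2-K1 and 0.594 for Tapbp.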

How the data were processed

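Total RNA of BV2 cells was sequenced in 3 CON and 3 sTREM-1 libraries, the number per group that the labels and the table give, while the study's methods state a larger n. The table deposited by the authors holds raw counts, whole numbers per gene symbol, and none of its per-sample columns (0) was left out. The methods name FastQC, RSEM and edgeR, and the submitters' processing notes name HISAT2 2.0.4 with hg19 and GRCh38, which are human builds, while the symbols are those of mouse genes. The mouse build, annotation and use of strand are not given in the sources used here, so that overlapping and near-identical genes may share or lose reads.

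A filter (filterByExpr of edgeR 4.0.16, minimum count 10, R 4.3.3) came first, then TMM scaling and edgeR's quasi-likelihood test without covariates, with Benjamini-Hochberg adjustment over all tested genes and calls at an adjusted p under 0.05. Standard errors were derived from each fold change with its F value. SDs of log2 CPM used a prior count of 2. Ratios within a library were compared by exact permutation. The floor of 3 counts covers counting error only. The procedure was tested on simulated data. Alternatives were RLE size factors, other filters, DESeq2 1.42.0, edgeR's exact test, a minimum fold change, a replicate block and leaving out each library.

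The 10 genes and the pathway lists were chosen with earlier results of these data known. Named were all 10 genes, genes of the heavy chain, loading, immunoproteasome and constitutive subunit lists that passed the filter, and of every other list up to 3 called genes per direction with the smallest p. Some genes that this selects are not reported here. Irf1, Nfyc, Cd74, marker genes not called, genes at 0 or under the filter and genes of the interval were named after their values were seen. The search for shared words of 50 and 100 bases and the spaced promoter pair were added then. Gene positions and exon lengths (all isoforms joined) came from GENCODE M21 (GRCm38) and promoters from RefSeq (GRCm38.p6).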

Additional observations from a re-analysis of the deposited data

How the results depend on the processing

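H2-T23 and Nlrc5 kept their direction and their call under the 12 alternatives fitted for single genes, and both changed by less than 1.2-fold. The count of class I genes called higher, 2 by edgeR, was 1 when at least 10 counts were asked of every library and 1 with DESeq2, which gave no adjusted p for Psmb9. With at least a 1.2-fold change it was 1 (Psmb9), the count called lower was 0, and 1517 of all genes were called in place of 4312. Leaving out single libraries gave 1 to 4 genes called higher (4 without CON replicate 2, which added B2m and Tap1, and 1 without CON replicate 3 or sTREM-1 replicate 2, which lost Psmb9). The median log2 fold change of the class I genes, 0.22, was 0.17 with at least 10 counts in every library and 0.16 to 0.23 when single libraries were left out. Over the same left-out libraries the log2 fold change ranged from -0.072 (without sTREM-1 replicate 1) to 0.38 for H2-K1, from -0.89 to 1.30 for Tap1, from -0.15 to 1.59 for Tap2 and from -1.24 to 0.27 for Psmb8, so that none of these 4 had a stable sign. The fit with a replicate block called 4613 genes, with 2 class I genes higher and 1 lower, and changed no call of the 9 tested. Same-numbered libraries did not deviate together (Pearson r of -0.0038, -0.0002 and 0.0128 over 14120 genes), so that the numbers are not taken as pairs. Spread between libraries beyond that of most genes of like depth limits Tap1, Tap2, Psmb8 and Psmb9, few counts limit Tapbp, and a difference in H2-D1 was not detectable.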

Other observations

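Of a comparison list of 13 genes of the MHC class II pathway, 7 were at 0 in all 6 libraries. Among them were the chains H2-Aa, H2-Ab1 and H2-Eb1, which lie between Tapbp and H2-D1 like the sparsely counted class I genes. Of the 4 listed genes that were tested, 3 were called higher with sTREM-1, beside 16.5% of all tested genes. The lysosomal protease Ctss (log2 fold change 0.19, edgeR adjusted p = 3.0e-08) and the thiol reductase Ifi30 (0.10, adjusted p = 0.0122) lie on chromosomes 3 and 8, outside the MHC. H2-DMb1 (0.77, edgeR adjusted p = 0.0196) lies in the sparsely counted interval. It was counted 46 to 51 times in CON and 70 to 111 times in sTREM-1. The invariant chain Cd74, named after its value was seen, had a log2 fold change of -0.05 and was not called.

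Class I-like molecules had 4 tested genes. Mr1, which presents vitamin B metabolites, rose by 0.22 (edgeR adjusted p = 0.00106) and Hfe, a regulator of iron uptake, by 0.31 (adjusted p = 0.00588), while 2 were not called. Among cytosolic peptidases, 2 of 7 tested genes were called higher, beside 16.5% of all tested genes. They were Thop1, which degrades peptides of class I length, at 0.38 (edgeR adjusted p = 1.4e-07) and Npepps at 0.09 (adjusted p = 0.0161). The non-classical heavy chain H2-M3 was counted 2, 0 and 2 times in CON and 16, 7 and 9 times in sTREM-1, under the count filter and so not tested.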
